A study of Mus musculus with 12 samples.

Results

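Light zone germinal center B cells of mice under costimulation blockade were compared with dark zone cells of mice under the same blockade. The comparison took every library labelled with the combined treatment, 3 of light zone and 3 of dark zone cells, which is 6 of the 12 libraries of the series. The cells were taken from spleens of NZBWF1/J mice, F1 hybrids prone to a disease resembling lupus. Treated mice received CTLA4-IG, a fusion protein that binds the costimulatory ligands CD80 and CD86, at 200 ug a dose. They also received Anti-CD40L, an antibody to the T cell ligand of CD40, at 250 ug a dose. Each agent was given in 6 doses over 2 weeks, starting at 18 weeks of age. The 3 light zone and 3 dark zone control libraries came from untreated mice of the same strain, whose age the labels do not give. Each library was made from 1000 cells sorted after negative selection for B cells, and the labels do not name the antibodies that set the zone gates.

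Dark zone B cells of a germinal center, held there by the chemokine receptor CXCR4, proliferate and diversify their antibodies by mutation. They then move to the light zone, capture antigen on follicular dendritic cells, present it on MHC class II and compete for T cell help, which reaches them largely through CD40. CD40 signalling activates NF-kB, and helped cells switch on a program of activation genes before some return to the dark zone to divide. Both arms of the blockade act on this exchange between B cells and helper T cells.

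Total counts were 19392252, 26837714 and 21995203 in light zone treated replicates 1, 2 and 3, against 21907505, 23425691 and 26508527 in dark zone treated replicates 1, 2 and 3. The treated libraries fell into unlike kinds. On the first principal component (30.3% of variance) the range of light zone treated replicate 2 and dark zone treated replicates 1 and 2 was 146.6 to 165.7, and that of the other 9 libraries of the series was -102.9 to 20.42. In these 3 libraries, called set A here, between 12188 and 12195 of 12212 symbols had a count, and in the other 9 between 11384 and 11960. Light zone treated replicates 1 and 3 and dark zone treated replicate 3 are called set B. Each zone holds libraries of both kinds in unequal number, so the zone difference was also taken within set A and within set B, like against like. In each of these sets 1 zone has a single library, which is assumed to vary like the other groups. Leaving out light zone treated replicate 2, or dark zone treated replicate 3, leaves that zone with 1 set only. Such values mix zone with set. Values below are normalised read counts, scaled to a common library size (CPM), in the order of replicates 1, 2 and 3. A log2 difference is light minus dark zone, with its standard error (SE).

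By edgeR's quasi-likelihood test with Benjamini-Hochberg adjustment, 0 of 12081 tested genes differed between the zones of treated mice at an adjusted p of 0.05, which is 0% of genes. At an unadjusted p under 0.05 there were 249 genes (2.06%), but this count was 1932 without light zone treated replicate 2 and 915 without dark zone treated replicate 3. It was 124 to 150 without any other treated library. DESeq2 called 1 gene, Anxa2, and limma-voom called 0, with 3278 genes at an unadjusted p under 0.05 and a smallest adjusted p of 0.0586. With a term for the library set, edgeR called 0 genes, 228 genes (1.89%) had an unadjusted p under 0.05, and the smallest adjusted p was 0.0797. The 3 light zone values all lay above the 3 dark zone values in 271 genes (2.24%) and all below them in 429 (3.55%). The zones did not overlap within set A and within set B, in the same direction in both, in 1379 genes higher in light zone libraries (11.4%) and 1388 lower (11.5%). These shares are the background for the counts below, and genes are described by their values without a call unless DESeq2 is named.

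The zone markers followed the labels in all 6 treated libraries. Cd83 (chr13:43784775-43803132, plus strand of mm10) encodes a surface protein of activated B cells that marks the light zone. It stood at 756, 628 and 617 CPM in light zone libraries, against 143, 162 and 217 CPM in dark zone libraries, so the lowest light zone value was far above the highest dark zone value. The log2 difference was 1.94 (SE 0.54, edgeR adjusted p = 1), with 2.04 in set A and 1.66 in set B. Cd40 (chr2:165055627-165072948, plus strand), the receptor whose ligand was blocked, stood at 110, 116 and 100 CPM in light zone libraries, against 38.3, 50.5 and 59.4 CPM in dark zone libraries. Here too the zones did not overlap, at a log2 difference of 1.14 (SE 0.38, adjusted p = 1). In pooled cells of this kind, fewer cells that carry a transcript and less of it per cell cannot be told apart. A difference in a gene whose protein was used for sorting can follow from the gate.

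Cxcr4 (chr1:128588199-128592293, minus strand) ran the other way, at 31.8, 42.6 and 19.9 CPM in light zone libraries, against 77.9, 90.1 and 163 CPM in dark zone libraries. The difference was -1.81 (SE 0.61, adjusted p = 1), and it was -0.98 in set A and -2.66 in set B. Anxa2 (chr9:69453620-69491795, plus strand) encodes a calcium-dependent membrane-binding protein. It stood at 65.7, 58.4 and 49.9 CPM in light zone libraries, against 177, 165 and 251 CPM in dark zone libraries. Its difference of -1.77 had the smallest SE of the 4 markers, 0.31, and was -1.55 in set A and -2.12 in set B. DESeq2 gave it an adjusted p of 0.00011 in treated mice and 0.00143 in controls, while edgeR gave an adjusted p of 1 in treated mice. DESeq2 gave adjusted p-values of 0.511 for Cd83, 0.877 for Cxcr4 and 0.855 for Cd40.

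**Figure D1:**
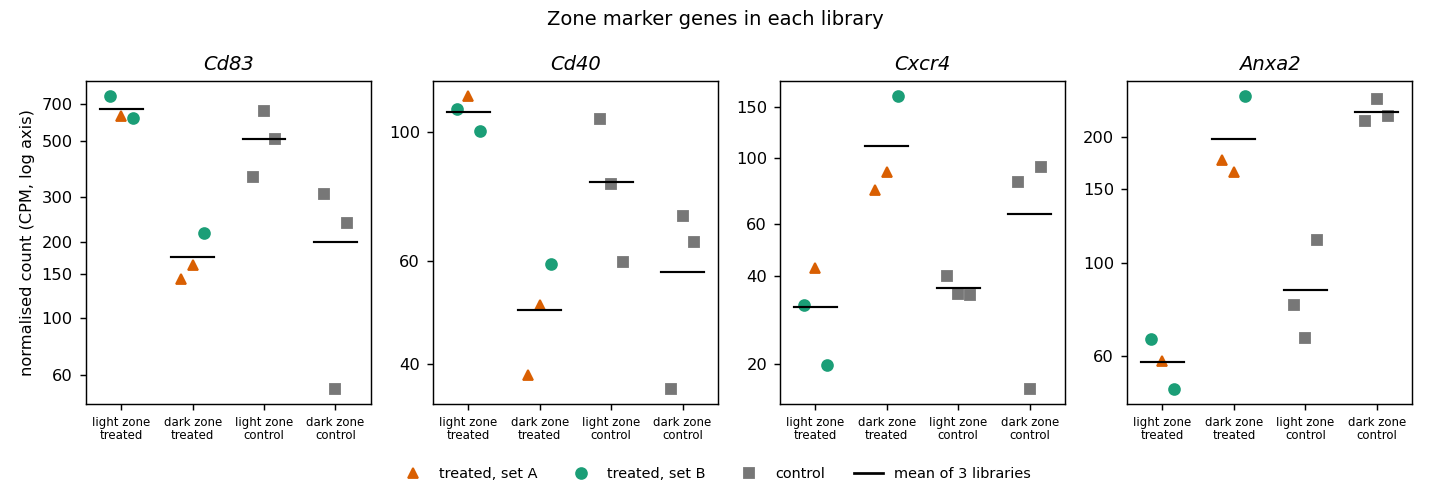
Normalised count (CPM, log axis) of the 4 zone marker genes in each library, with light and dark zone treated libraries left of light and dark zone control libraries; lines are means of 3 libraries and colours show the library sets. In treated mice every light zone library is above every dark zone library for Cd83 and Cd40 and below every one for Cxcr4 and Anxa2, whereas in controls Cxcr4 overlaps through a dark zone library at 16.4 CPM.

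In controls the markers had the same directions. Cd83 stood at 361, 655 and 508 CPM in light zone control libraries, against 309, 52.5 and 237 CPM in dark zone control libraries. Cxcr4 stood at 39.8, 34.8 and 34.3 CPM in light zone control libraries, against 83.4, 16.4 and 93.7 CPM in dark zone control libraries. The control differences were 1.35 (SE 0.53) for Cd83, 0.52 (SE 0.37) for Cd40, -0.83 (SE 0.60) for Cxcr4 and -1.42 (SE 0.31) for Anxa2, and Cd40 and Cxcr4 overlapped between zones. The treated difference minus the control difference was 0.59 (SE 0.74) for Cd83, 0.62 (SE 0.53) for Cd40, -0.98 (SE 0.84) for Cxcr4 and -0.35 (SE 0.43) for Anxa2. Each was at most slightly larger than its SE, and none passed the test (adjusted p = 1 by edgeR), which does not show that the zones differed by the same amount with and without blockade.

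Genes of the light zone program were mostly higher in light zone cells under blockade. Of 28 measured members 27 had a positive difference, with a median of 0.851 on the log2 scale, against 52.6% of all tested genes and a median of 0.0515. All 28 were positive in set A (median 1.378) and 22 in set B (median 0.918), where 50.9% and 53.2% of all genes were. In 7 of the 28 the zones did not overlap, all higher in the light zone, and 15 of 28 did not overlap within both sets, again all higher, beside the 2.24% and 11.4% of all genes. Without light zone treated replicate 2 the median of the list was 0.289. In controls 24 of 28 were positive, against 50.1% of all genes, with a median of 1.073.

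Among these genes, Batf encodes an AP-1 family transcription factor needed for class switching. It stood at 65.6, 89.9 and 73 CPM in light zone libraries, against 24.5, 40.6 and 21.9 CPM in dark zone libraries (difference 1.39, SE 0.52). Cd86, the ligand gene that CTLA4-IG targets, stood at 240, 108 and 121 CPM in light zone libraries, against 36.2, 38.2 and 105 CPM in dark zone libraries. The zones of Cd86 were thus separated by a small gap only, between light zone replicate 2 and dark zone replicate 3, which belong to different sets. Its difference was 1.39 (SE 0.63) in treated mice and 2.57 (SE 0.65) in controls, and the difference between these was -1.18 (SE 0.87). The transcript of the other ligand, Cd80, stood at 0, 1.19 and 0 CPM in light zone libraries, against 1.16, 0.6 and 0.12 CPM in dark zone libraries, and 3 of these 6 values are at or below the floor of 3 counts. Of the 14 measured genes of the costimulation axis 10 were positive (median 0.444), with 12 in set A (median 0.927) and 8 in set B (median 0.374). The pooled median was -0.259 when light zone treated replicate 2 was left out.

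NF-kB target genes gave a similar picture, but this list shares members with the light zone program, among them Cd83, Cd86, Nfkbia, Bcl2a1b, Relb and Icam1. The results of these lists are therefore not independent. Of 25 measured CD40 and NF-kB targets 19 had a positive difference, with a median of 0.862, and 24 did in set A (median 0.94) and 20 in set B (median 1.06). Of the 25, 5 did not overlap between zones and 12 did not overlap within both sets, all higher in light zone cells. The shares of all genes were 2.24% and 11.4%. Without light zone treated replicate 2 the pooled median was -0.505. That value sets light zone libraries of set B alone against dark zone libraries of both sets, so it mixes zone with set. Set B, which lacks that library, gave 1.06. Nfkbia encodes the inhibitor of NF-kB that NF-kB itself induces. It stood at 370, 596 and 329 CPM in light zone libraries, against 246, 293 and 168 CPM in dark zone libraries (difference 0.88, SE 0.37). Map3k8, a kinase upstream of NF-kB and ERK, had a difference of 4.22 (SE 1.41), but its values of 8.72, 5.92 and 95.9 CPM in light zone libraries, against 2, 3.44 and 0.481 CPM in dark zone libraries, show that replicate 3 carried most of it. In controls 17 of the 25 targets were positive, with a median of 0.567.

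The promoter of Nfkbia is shown because the gene is both a light zone and an NF-kB target gene without overlap between zones. The sequence runs from 250 bases before to 50 bases after the transcription start in RefSeq (GRCm38.p6, chr12:55492598-55492897, minus strand), and capitals mark a match to the NF-kB motif.
Nfkbia: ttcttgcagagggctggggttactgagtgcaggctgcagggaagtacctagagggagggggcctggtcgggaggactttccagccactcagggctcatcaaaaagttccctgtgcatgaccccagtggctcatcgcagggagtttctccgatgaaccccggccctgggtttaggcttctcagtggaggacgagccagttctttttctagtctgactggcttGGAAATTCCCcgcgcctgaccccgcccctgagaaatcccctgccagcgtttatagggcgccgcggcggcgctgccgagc
The motif was searched on both strands as GGG, any 2 bases, and then TTTCC or TTCCC, and the match starts 29 bases before the start site. In RefSeq 3.2% of 32851 promoter windows held one. Among 18 light zone program genes with a known promoter window 5 (27.8%) held a match, of 18 CD40 and NF-kB targets 7 (38.9%), of 13 dark zone program genes 1 (7.7%), and of all tested genes with a window 4.6%. The light zone and NF-kB target lists have members in common, so their shares are not independent. A match describes the letters of the window and not binding of a factor.

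Genes of antigen presentation were also mostly higher in light zone cells. Of 13 measured MHC class II presentation genes 11 were positive (median 0.375, and 0.611 without dark zone treated replicate 3), with 13 in set A and 8 in set B. In 7 the zones did not overlap within both sets, all higher, beside 11.4% of all genes. Cd74, the invariant chain that guides MHC class II molecules, stood at 17350, 13480 and 16060 CPM in light zone libraries, against 9337, 9329 and 11970 CPM in dark zone libraries, without overlap. H2-Aa, the alpha chain of I-A, stood at 5436, 3222 and 5374 CPM in light zone libraries, against 1734, 2137 and 3888 CPM in dark zone libraries, and overlapped between the sets but not within either. In controls 12 of 13 genes were positive (median 0.364). Of 23 genes for lysosomal enzymes and their tagging 15 were positive, with 22 in set A and 14 in set B. In 8 the zones did not overlap within both sets, all higher, beside the same 11.4% of all genes. The pooled median of this list was 0.192, with 0.61 in set A and 0.119 in set B, and it was -0.492 without light zone treated replicate 2. Ctsh, the protease cathepsin H, stood at 424, 378 and 336 CPM in light zone libraries, against 235, 260 and 298 CPM in dark zone libraries (difference 0.52, SE 0.29).

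By the rule for the smallest p, the 10 genes named for higher values in light zone cells were Fndc3b, Id2, BC018473, Gnptab, Cd83, Leprotl1, Bcl2a1b, Ly6d, Havcr1 and Dnaja1, with log2 differences of 1.34 to 3.94. All 10 had an adjusted p of 1. Id2 encodes an inhibitor of the E proteins, which are transcription factors of B cell development. It stood at 111, 49 and 145 CPM in light zone libraries, against 22.1, 36.9 and 14.9 CPM in dark zone libraries. Light zone replicate 2 was the lowest of its zone and still above all dark zone libraries, and the difference was 2.04 (SE 0.52) in treated mice and 0.73 (SE 0.50) in controls. The difference between these did not pass the test by edgeR. Of the E protein genes, Tcf3 stood at 13.5, 109 and 26 CPM in light zone libraries, against 158, 133 and 34.3 CPM in dark zone libraries. Its levels followed the library sets more than the zones, and within each set the light zone value was lower.

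Gnptab encodes the enzyme that tags lysosomal hydrolases with mannose phosphate. It stood at 108, 29.5 and 71.8 CPM in light zone libraries, against 20, 18.4 and 15.5 CPM in dark zone libraries (difference 1.96, SE 0.54). Bcl2a1b belongs to the antiapoptotic A1 genes, and stood at 479, 160 and 258 CPM in light zone libraries, against 40, 61 and 140 CPM in dark zone libraries. The A1 copies are nearly identical and Bcl2a1b shares 401 exon bases with Gm29094, so its reads cannot be assigned with certainty. Its copy Bcl2a1d had a difference of 1.42 (SE 0.70), with overlap. Ly6d, a surface protein of lymphoid precursors and mature B cells, stood at 190, 203 and 112 CPM in light zone libraries, against 20.1, 74.2 and 45.5 CPM in dark zone libraries.

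Havcr1 encodes the surface receptor TIM-1. It stood at 100, 51.2 and 95.4 CPM in light zone libraries, against 26.1, 34.7 and 23.9 CPM in dark zone libraries, a difference of 1.54 (SE 0.47) in treated mice against 0.01 (SE 0.46) in controls. The difference between these, 1.54 (SE 0.65), did not pass the test (adjusted p = 1). Dnaja1, a cochaperone of HSP70, stood at 442, 222 and 719 CPM in light zone libraries, against 150, 194 and 202 CPM in dark zone libraries, and shares 608 exon bases with Smu1. Fndc3b rested largely on 1 library, at 28.6, 2.15 and 7.85 CPM in light zone libraries, against 1.22, 0.98 and 0.28 CPM in dark zone libraries. BC018473 (difference 1.55, SE 0.41) and Leprotl1 (2.10, SE 0.60) complete the list. In controls all 10 genes had the same direction, though Havcr1 differed by only 0.01 there. Of the 271 genes higher without overlap in treated mice, 63.8% had the same direction in controls. Of the 10, 5 did not overlap there. Of the 700 genes without overlap in treated mice in either direction, 9.14% did not overlap in the same direction in controls. Of all genes 4.47% were higher without overlap in light zone control libraries. The p-values that ranked the 10 rest on a spread estimated with the control libraries too.

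**Figure D2:**
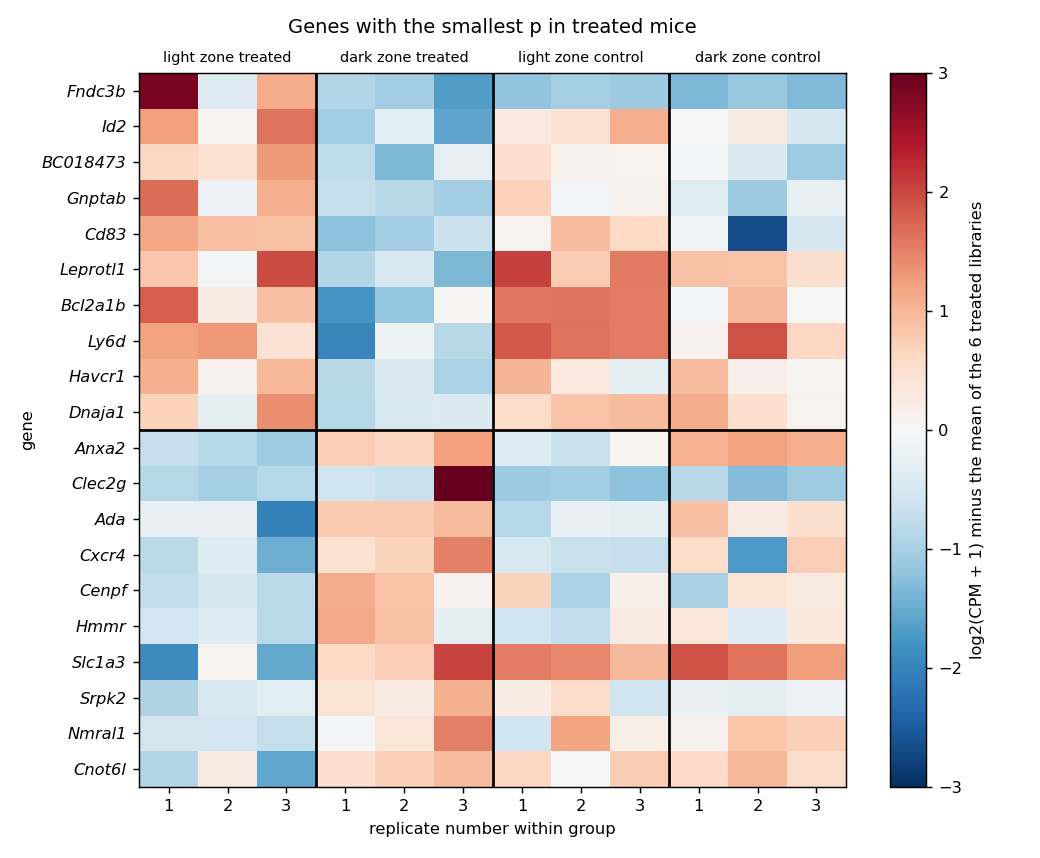
Log2(CPM + 1) of the 20 genes named by smallest p, minus the mean of the 6 treated libraries, in every library, with colours ending at 3; the upper 10 genes were higher and the lower 10 lower in light zone treated libraries. The 6 treated columns separate by zone because the genes were chosen for that. The choice did not use the control zone difference, but its p-values rest on a spread estimated with the control libraries too. The control columns show the same direction for all of the upper 10 and 8 of the lower 10.

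The dark zone program ran the other way. Of 16 measured members 14 had a negative difference and 2 a positive one, with a median of -0.537, against 47.4% of all tested genes with a negative one. In set A 15 were negative, and in set B 14. In 10 of the 16 the zones did not overlap within both sets, all lower in light zone cells, beside 11.5% of all genes. In 3 of 16, which were Cxcr4, H2afx and Cdkn2c, the 3 light zone values were all below the 3 dark zone values. Bach2, a repressor that holds back plasma cell differentiation, stood at 179, 125 and 101 CPM in light zone libraries, against 233, 171 and 292 CPM in dark zone libraries, and overlapped by 1 pair of libraries of different sets. In controls 11 of the 16 genes were negative, with a median of -0.446, and only 9 of the 16 had the same direction as in treated mice.

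Cdkn2c, an inhibitor of the D-type cyclin kinases, had opposite directions with and without blockade. It stood at 3.33, 20.7 and 6.66 CPM in light zone treated libraries, against 25.5, 40 and 44.1 CPM in dark zone treated libraries. In controls it stood at 50.2, 58.9 and 19 CPM in light zone libraries, against 24.8, 13.5 and 16.1 CPM in dark zone libraries. The zone difference was thus -1.84 (SE 0.73) in treated mice and 1.24 (SE 0.72) in controls, and their difference of -3.07 (SE 1.02) did not pass the test (adjusted p = 1). Its treated difference was -2.88 without light zone treated replicate 2.

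Genes of division were lower in light zone cells, most evenly in set A. Of 29 measured G2 and M phase genes 23 were negative and 6 positive, with a median of -0.533 (-0.338 without dark zone treated replicate 2 and -0.907 without light zone treated replicate 3), and all 29 were negative in set A (median -1.287), against 18 in set B (median -0.365). In 14 of 29 the zones did not overlap within both sets, and in 7 they did not overlap over all 3 libraries, all lower in light zone cells. The shares of all genes were 11.5% and 3.55%. The 7 were Cdc25b, Aurka, Cenpf, Hmmr, Tpx2, Kif11 and Kif23, which serve mitotic entry, the spindle, the kinetochore and cell separation. In controls 8 of 29 were positive and the median was -0.39.

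Cenpf, a kinetochore protein, stood at 47.2, 55.3 and 44.9 CPM in light zone libraries, against 175, 145 and 87.1 CPM in dark zone libraries. The light zone values lay close together and below all dark zone values, at a difference of -1.47 (SE 0.50) in treated mice and 0.08 (SE 0.49) in controls. The difference between these did not pass the test by edgeR. Hmmr, which binds the mitotic spindle, stood at 41.8, 47.8 and 35.4 CPM in light zone libraries, against 138, 115 and 51.8 CPM in dark zone libraries (difference -1.29, SE 0.46). Tpx2, a spindle assembly factor, stood at 46.6, 48.6 and 66.1 CPM in light zone libraries, against 107, 130 and 90.2 CPM in dark zone libraries (difference -1.02, SE 0.39). Not all members followed. Bub1, a checkpoint kinase, stood at 132, 17.2 and 126 CPM in light zone libraries, against 31.4, 34.3 and 41 CPM in dark zone libraries, a difference of -0.93 in set A and 1.65 in set B.

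The promoters of Cenpf (chr1:189688037-189688336, minus strand) and Hmmr (chr11:40733388-40733687, minus strand) are shown because both genes separated the zones and belong to a class of genes known for promoters with paired cell cycle elements. The windows and build are those of the Nfkbia promoter. Capitals mark the cell cycle homology region TTTGAA and the CCAAT box, which reads ATTGG on the opposite strand.
Cenpf: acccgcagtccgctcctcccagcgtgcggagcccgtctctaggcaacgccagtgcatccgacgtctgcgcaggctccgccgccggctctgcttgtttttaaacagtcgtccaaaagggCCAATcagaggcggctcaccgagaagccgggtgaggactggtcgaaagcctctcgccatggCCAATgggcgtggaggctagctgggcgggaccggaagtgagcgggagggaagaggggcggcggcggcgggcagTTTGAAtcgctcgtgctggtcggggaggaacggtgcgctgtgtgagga
Hmmr: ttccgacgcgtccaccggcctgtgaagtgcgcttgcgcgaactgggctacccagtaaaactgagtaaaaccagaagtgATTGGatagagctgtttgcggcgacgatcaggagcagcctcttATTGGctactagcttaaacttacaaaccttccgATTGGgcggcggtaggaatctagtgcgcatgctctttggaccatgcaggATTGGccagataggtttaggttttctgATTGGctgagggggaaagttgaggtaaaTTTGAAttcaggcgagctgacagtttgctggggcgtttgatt
The TTTGAA match starts 2 bases after the start site in Cenpf and 8 bases after it in Hmmr. Cenpf has CCAAT boxes 132 and 71 bases before the start site, and Hmmr has 5 within 172 bases. Of 24 G2 and M phase genes with a promoter window 17 (70.8%) held TTTGAA and 22 (91.7%) held CCAAT, on either strand. Of all tested genes with a window 14.7% held TTTGAA and 43.3% held CCAAT, and of all RefSeq windows 17.9% held TTTGAA and 37.4% held CCAAT.

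Genes of DNA replication had a smaller median difference. Of 32 measured members 12 were positive (median -0.154, and -0.032 without light zone treated replicate 2), with 3 in set A (median -0.344) and 12 in set B (median -0.285). In 8 the zones did not overlap within both sets, all lower in light zone cells, beside 11.5% of all genes. Lig1, the ligase that joins replicated fragments, stood at 134, 149 and 102 CPM in light zone libraries, against 203, 236 and 182 CPM in dark zone libraries (difference -0.69, SE 0.38), and shares 247 exon bases with Zswim9. Mcm4, a subunit of the replicative helicase, stood at 161, 147 and 153 CPM in light zone libraries, against 159, 241 and 283 CPM in dark zone libraries, with overlap by dark zone replicate 1 alone. In controls 20 of the 32 genes were positive, with a median of 0.1.

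The 10 genes named for lower values in light zone cells were Anxa2, Clec2g, Ada, Cxcr4, Cenpf, Hmmr, Slc1a3, Srpk2, Nmral1 and Cnot6l, again with an adjusted p of 1 each. Ada, the purine salvage enzyme adenosine deaminase, stood at 99.2, 96.7 and 27.4 CPM in light zone libraries, against 199, 198 and 222 CPM in dark zone libraries. The dark zone values lay close together, and the difference was -1.47 (SE 0.46) in treated mice and -1.0 (SE 0.45) in controls. Srpk2, a kinase of splicing factors, stood at 22.3, 30.9 and 33.4 CPM in light zone libraries, against 57.1, 49.7 and 89.4 CPM in dark zone libraries, and shares 972 exon bases with Kmt2e. Its difference was -1.18 (SE 0.43) in treated mice and 0.36 (SE 0.43) in controls, and the difference between these did not pass the test by edgeR. Slc1a3, a glutamate transporter, was low in light zone libraries at 0.409, 4.68 and 0.826 CPM, against 7.08, 7.8 and 20.5 CPM in dark zone libraries. Clec2g rested on 1 library, at 0.702, 0.569 and 0.723 CPM in light zone libraries, against 1.06, 0.948 and 47.4 CPM in dark zone libraries, and its difference was -0.60 without dark zone replicate 3. In controls 8 of the 10 had the same direction, beside 64.1% of the 429 genes that were lower without overlap in treated mice. Of the 10, 2 did not overlap in controls. Of the 700 genes without overlap in treated mice in either direction, 9.14% did not overlap in the same direction in controls. Of all genes 5.6% were lower without overlap there.

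The partner of the Anxa2 protein is encoded by S100a10. It stood at 0.585, 61.7 and 22.7 CPM in light zone libraries, against 4.77, 19.3 and 9.29 CPM in dark zone libraries, with overlap. Its difference of 1.35 (SE 1.13) was 0.04 without light zone treated replicate 2 and -0.85 by limma-voom. S100a11, a related calcium-binding protein, stood at 121, 65.9 and 151 CPM in light zone libraries, against 25.3, 46.2 and 97 CPM in dark zone libraries (difference 1.0, SE 0.52). Of the 11 measured annexin and S100 genes 8 were positive, with a median of 0.377 (0.022 without light zone treated replicate 2, and 0.049 in set B), and Anxa2 was the one member whose zones did not overlap over all 3 libraries.

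**Figure D3:**
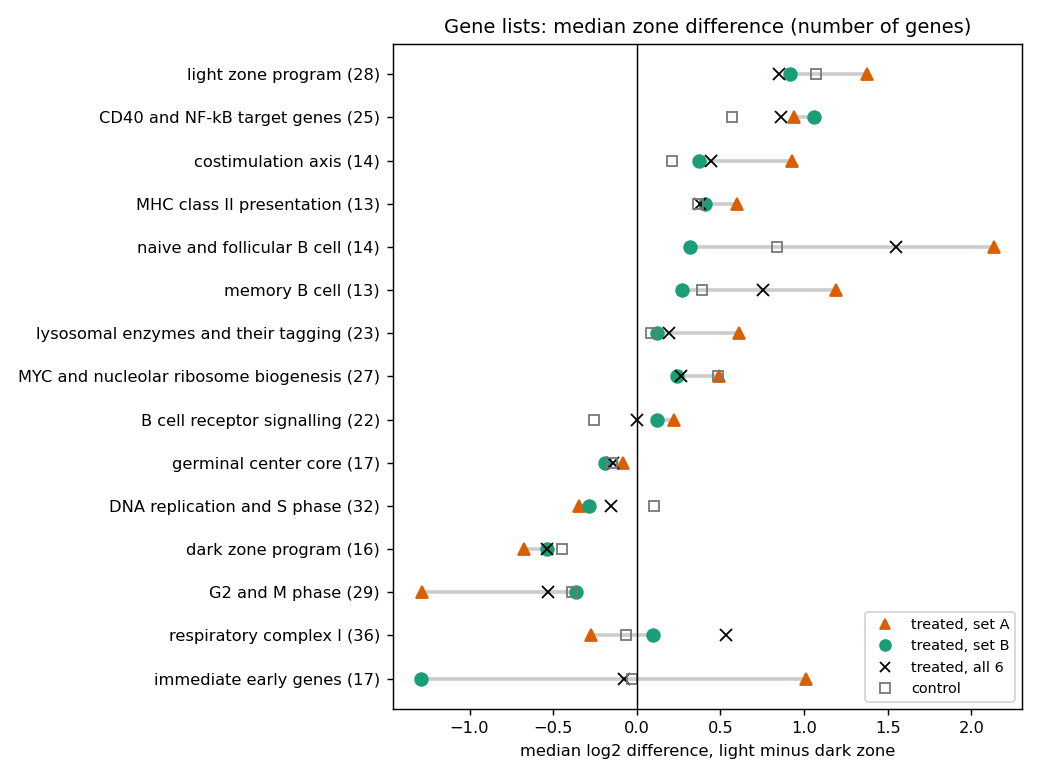
Median log2 difference, light minus dark zone, of 15 gene lists in treated set A, treated set B, all 6 treated libraries and controls, with the number of genes in brackets. The light and dark zone programs keep their direction in all 4, while the complex I median over all 6 treated libraries (0.534) lies outside its values in set A (-0.276) and set B (0.094).

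The pooled and the within-set values disagreed for some lists. Of 36 measured genes of respiratory complex I, which carries electrons into the mitochondrial chain, 31 were positive in the pooled comparison, with a median of 0.534. Within set A 1 of 36 was positive (median -0.276), within set B 23 were (median 0.094), and with a library set term the median was -0.1. With each library left out, the pooled median ranged between 0.253 and 1.337. Ndufb2 stood at 605, 98.4 and 471 CPM in light zone libraries, against 108, 109 and 370 CPM in dark zone libraries, so its values followed the sets and not the zones. Rgs13, a regulator of G protein signalling in germinal center B cells, stood at 1838, 254 and 1860 CPM in light zone libraries, against 248, 166 and 1517 CPM in dark zone libraries. Its levels followed the sets more than the zones. Within each set the light zone values were higher, in set A by a small gap only. Of 17 immediate early genes, 15 were positive in set A (median 1.011) and 6 in set B (median -1.288), against 8 in the pooled comparison (median -0.075, and between -1.171 and 0.458 with each library left out).

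**Figure D4:**
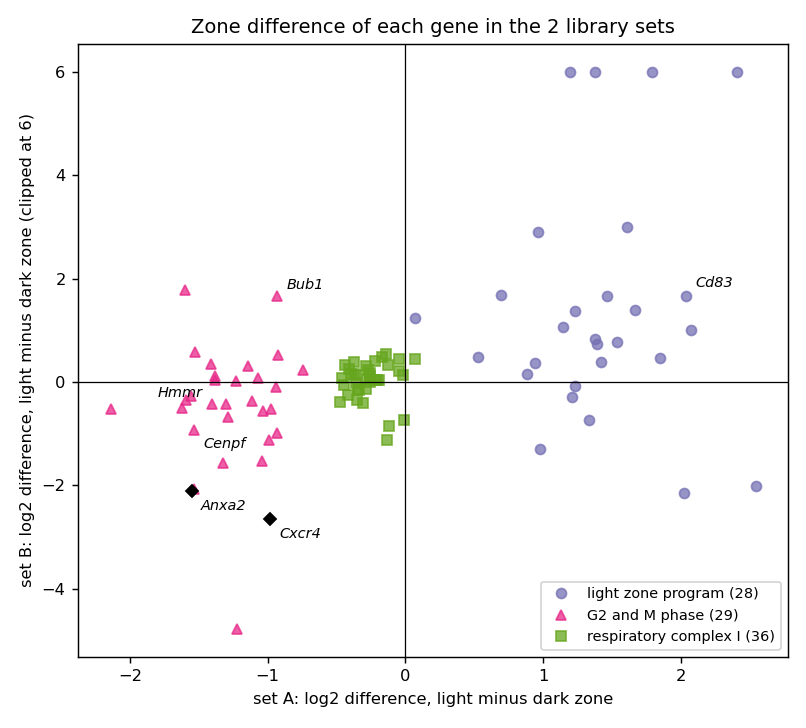
Log2 difference, light minus dark zone, of each gene within set A (horizontal) and within set B (vertical) for 3 lists and 2 marker genes; 4 light zone program genes are drawn at the vertical limit of 6. Of 28 light zone program genes 22 are positive in both sets, of 29 G2 and M phase genes 18 are negative in both, and most complex I genes lie close to 0 on both axes.

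Signs of other B cell states and other cells were measured beside these results. Among the naive and follicular B cell genes, S1pr1 and Fcer2a were highest in light zone treated replicate 2. S1pr1, the receptor that guides B cells out of follicles, stood at 0, 96.3 and 0 CPM in light zone libraries, against 6.6, 19.4 and 0.0801 CPM in dark zone libraries. Fcer2a, the IgE receptor CD23 of follicular B cells, stood at 7.25, 95.2 and 0.0516 CPM in light zone libraries, against 15.8, 16.9 and 0.32 CPM in dark zone libraries, and both genes were singled out after their values were seen. Of 14 measured naive and follicular B cell genes 13 were positive (median 1.552), with 13 in set A (median 2.134) and 8 in set B (median 0.319). Without light zone treated replicate 2 the pooled median was -0.4. The pooled NF-kB median was also negative without that library, in a comparison that mixes zone with set. The part of naive cells in these values was not tested.

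Markers of macrophages did not move together. Lyz2, lysozyme, stood at 0.351, 17.9 and 0.103 CPM in light zone libraries, against 13.7, 15 and 0.28 CPM in dark zone libraries, and C1qa at 0, 21 and 0.155 CPM in light zone libraries, against 9.11, 8.06 and 0.36 CPM in dark zone libraries. These 2 genes were higher in set A, while the sum of all 18 macrophage and monocyte genes was lower there. It was 792, 694 and 798 CPM in light zone libraries, against 516, 385 and 945 CPM in dark zone libraries. Of the 18 genes 17 were positive (median 0.541), with 17 in set A (median 1.249) and 11 in set B (median 0.32). Without light zone treated replicate 2 the pooled median was -1.285. Of these genes 2, 0 and 4 were at 0 in light zone libraries, against 0, 0 and 2 in dark zone libraries. The 16 T cell genes summed to 364 to 603 CPM in light zone libraries, against 246 to 376 CPM in dark zone libraries, and 15 were positive, with 15 in set A and 6 in set B. The median of the T cell genes was 0.395, with 1.297 in set A and -0.264 in set B. It was -1.482 without light zone treated replicate 2. Cd3g stood at 11.8, 10.5 and 28.5 CPM in light zone libraries, against 1.58, 4.77 and 0.761 CPM in dark zone libraries, and Cd3e at 0.936, 10.6 and 1.19 CPM in light zone libraries, against 2.61, 4.36 and 1.4 CPM in dark zone libraries. The part of these cells in the zone differences was not tested.

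The 12 B cell identity genes summed to 7816 to 11250 CPM in light zone libraries, against 6272 to 11270 CPM in dark zone libraries, with no member at 0 in any of them. Bcl6, the factor that sustains germinal center B cells, stood at 57.2, 59.1 and 97.8 CPM in light zone libraries, against 92, 81 and 59.7 CPM in dark zone libraries. Jchain, which marks plasma cells, stood at 7960, 1109 and 8938 CPM in light zone libraries, against 1392, 2154 and 6206 CPM in dark zone libraries, and followed the sets. Hbb-bs, a globin of red cells, stood at 1.52, 62.6 and 0.258 CPM in light zone libraries, against 12.9, 18.2 and 1.92 CPM in dark zone libraries.

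Across all tested genes, the treated zone difference had the sign of the control zone difference in 54.7%. Of the 700 genes whose zones did not overlap in treated mice (5.79% of tested genes) 448 (64%) had the same sign in controls, where light zone values did not overlap with dark zone values in the same direction for 64 of the 700 (9.14%) and in the opposite direction for 18. The treated minus control zone difference passed the adjusted threshold in 0 of 12081 genes by edgeR (0%) and 0 by limma-voom, with 275 (2.28%) at an unadjusted p under 0.05 by edgeR and 1759 by limma-voom, while DESeq2 called 16. The edgeR count was 1218 without light zone treated replicate 2, 507 without dark zone treated replicate 3, 458 without dark zone control replicate 3, 177 without dark zone treated replicate 1 and 164 without dark zone treated replicate 2. In controls alone edgeR called 0 genes, with 595 (4.93%) at an unadjusted p under 0.05, DESeq2 called 113 and limma-voom called 1, Cahm.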

How the data were processed

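RNA of 12 libraries, 3 per zone and treatment, was made into cDNA and libraries with kits that do not keep strand, per the labels' protocols. The authors' deposited files give expected counts per gene symbol, which are whole numbers or lie midway between them; midway values were rounded up and blank cells read as 0. The submitters' processing notes name BWA and mm10; the sources used here give no version, counter or annotation.

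Counts were tested with edgeR 4.0.16 (R 4.3.3; TMM; filterByExpr, minimum count 10, minimum total 15; robust quasi-likelihood fit), all 12 libraries in 1 fit with a term per group; p-values are two-sided and adjusted by Benjamini-Hochberg over 12081 genes at 0.05. An SE is the absolute log2 difference over the square root of F. CPM use TMM-scaled totals, and log2 CPM a prior count of 2. Totals of 16032746 to 26837714 put a floor of 3 counts at 0.112 to 0.187 CPM, for counting error only. Alternatives were DESeq2 1.42.0, limma 3.58.1 (voom with sample weights), other scaling, no filter, no robust estimation, a library set term, a replicate block, the sets alone and each library left out. The members, lists and rules were chosen with earlier results of these data known, and some genes are not reported here.

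Genes were named as follows. The 4 markers, S100a10, Cd80, Cd86 and markers of other cells were named whatever their value. Per direction, up to 10 genes were taken by smallest p if they differed 2-fold or more, averaged 10 CPM or more in the higher zone, did not overlap and had the same direction in both sets. Up to 4 genes of each list were named by smallest p; other named genes were chosen after their values were seen. The labels do not say whether replicates are separate mice, so p-values cover only the spread among these libraries, which may be technical. Gene positions come from GENCODE M21 (mm10) and promoters from RefSeq. Of 75 genes looked up, exons of 11 share bases with another gene, and reads there can come from either.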

Additional observations from a re-analysis of the deposited data

Results flagged for a closer look

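The zone difference ran in opposite directions with and without blockade, without overlap in either, for 3 named genes, and none passed the test by edgeR. Pole, the catalytic subunit of a leading-strand DNA polymerase, stood at 13.4, 25.4 and 21 CPM in light zone treated libraries, against 28.3, 30.2 and 63.3 CPM in dark zone treated libraries. In controls it stood at 106, 50.4 and 20.5 CPM in light zone libraries, against 9.73, 6.93 and 16.5 CPM in dark zone libraries, and the treated minus control zone difference was -3.44 (SE 0.94, adjusted p = 1). Pgap1, a remodelling enzyme of GPI anchors, stood at 40.5, 11 and 25.5 CPM in light zone treated libraries, against 9.66, 8.63 and 3.08 CPM in dark zone treated libraries. In controls it stood at 2.81, 7.86 and 2.64 CPM in light zone libraries, against 48.6, 51.5 and 17.6 CPM in dark zone libraries, a difference of 4.99 (SE 1.13, adjusted p = 1 by edgeR; 5.02 with an adjusted p of 0.00478 by DESeq2). Cyp51, a sterol demethylase that shares 166 exon bases with Akap9, stood at 133, 103 and 200 CPM in light zone treated libraries, against 79.2, 91 and 67.3 CPM in dark zone treated libraries. In controls it stood at 41, 15 and 57.4 CPM in light zone libraries, against 120, 86 and 75.7 CPM in dark zone libraries, and the difference between the zone differences was 2.19 (SE 0.68, adjusted p = 1).

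DESeq2 called 16 genes for the difference between the treated and control zone differences. Of these, Pgap1 is given above, and Bag2, Gtf2h4 and Gm11423 are given here because the naming rule also took them by their edgeR p. In dark zone control libraries Bag2 stood at 0.137, 29.2 and 8.38 CPM, and Gtf2h4 at 3.08, 18.6 and 6.84 CPM. Gm11423 stood there at 9.60, 19.0 and 11.5 CPM. The zones of treated mice overlapped for all 3 genes, and those of controls did not. All 3 stood between 0 and 0.172 CPM in the light zone control libraries, so no fold is given for them beyond the fitted value. For Bag2, a cochaperone, the value was 9.70 (adjusted p = 0.00565), with 35.6, 16.6 and 22.6 CPM in light zone treated libraries, against 10.6, 20.1 and 26.7 CPM in dark zone treated libraries. For Gtf2h4, a subunit of transcription factor TFIIH, it was 6.92 (adjusted p = 0.00565). For Gm11423 it was 12.76 (adjusted p = 0.00973), with 9.59, 0.853 and 0.0516 CPM in light zone treated libraries, against 1.74, 0.284 and 0 CPM in dark zone treated libraries.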

How the results depend on the processing

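The count of genes called between the zones of treated mice was 0 under edgeR with other scaling, without the count filter, without robust estimation, with a library set term, with 9 libraries and with the 6 treated libraries alone, and 0 to 0 with each library left out. DESeq2 called 1 gene in treated mice, 113 in controls and 16 for the difference between them, and limma-voom called 1 in controls. Of 71 named gene differences 67 kept their sign in every setting in which they were fitted, at most 23, against 9 of 33 list medians. Those of the 71 that are treated minus control differences were not fitted in set A alone, in set B alone or in the 6 treated libraries alone. Reversed were S100a10 (-0.854 by limma-voom), and Bub1 (-0.93), Ndufb2 (-0.143) and Ndufb4 (-0.166) in set A alone, and the cause was not tested. Same-numbered light and dark zone treated libraries had correlations of -0.307, 0.539 and 0.295. The correlations followed the sets, since light zone replicate 2 had 0.56 with dark zone replicate 1 and -0.588 with dark zone replicate 3. They therefore cannot tell whether the replicate numbers pair the treated libraries. With a replicate block 0 genes were called in treated mice, with 170 at an unadjusted p under 0.05. The median SE over all genes was 0.87 on the log2 scale, which limits the differences that can be told from the spread, and genes near the floor of 3 counts carry no fold.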

Other observations

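Of 20 measured interferon-stimulated genes 13 were positive, beside 52.6% of all tested genes, with 13 in set A (median 0.551) and 12 in set B (median 0.231). The pooled median was 0.338, and -0.097 without light zone treated replicate 2. In 2 of the 20 the light zone was higher without overlap, beside 2.24% of all genes. Zbp1, a sensor of nucleic acids, stood at 85.7, 32.2 and 73 CPM in light zone libraries, against 24.2, 20.4 and 18.6 CPM in dark zone libraries (difference 1.59, SE 0.53). Of 27 genes of MYC and nucleolar ribosome biogenesis 15 were positive (median 0.267), beside 52.6% of all genes. In set A 26 were positive and in set B 15, where 50.9% and 53.2% of all genes were. The pooled count and that of set B are thus near the shares of all genes. In 10 the zones did not overlap within both sets, all higher in light zone cells, beside 11.4% of all genes. Nop58, a nucleolar ribonucleoprotein, stood at 270, 183 and 276 CPM in light zone libraries, against 131, 170 and 134 CPM in dark zone libraries. The median of the MYC and ribosome biogenesis list was 0.49 in set A and 0.238 in set B, and the pooled median was -0.462 without light zone treated replicate 2.

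In the BCL2 family, Bcl2l11, the proapoptotic gene of BIM, stood at 0.585, 9.75 and 6.3 CPM in light zone libraries, against 25.8, 21.9 and 21.9 CPM in dark zone libraries, without overlap. Its difference was -2.06 (SE 1.03) in treated mice and -2.44 (SE 1.05) in controls. Of 22 genes of B cell receptor signalling 11 were positive (median 0.002), with 17 in set A (median 0.222) and 12 in set B (median 0.122). The pooled median was -0.506 when light zone treated replicate 2 was left out. Of 17 germinal center core genes 4 were positive (median -0.143, and -0.305 without dark zone treated replicate 3). For none of the 17 did the 3 light zone values lie apart from the 3 dark zone values. Cd38, among the positive genes, is also a member of the naive and follicular B cell list, so this list is not one of germinal center identity alone.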
